A study of Mus musculus with 26 samples.

Results

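The RNA of late 2-cell mouse embryos from oocytes without Kdm3a and Kdm3b was compared with that of control late 2-cell embryos, over all genes with a level of at least 1 TPM (transcripts of the gene among all transcripts, scaled to a fixed total) in at least 2 of the 4 libraries. This rule took in 12606 of the 24412 genes in the table. Of these, 10638 reached 1 TPM in all 4 libraries, 390 reached it only in both mDKO libraries, 291 only in both control libraries, and 1287 in some other combination. The genes nearest the limit were Smg9, Cdon and LOC100125594 just inside it, with a second highest level of 1.0 TPM, and 2310081J21Rik and Crygs (0.9995 TPM) and Uts2r (0.998 TPM) just outside it.

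The study measured polyA RNA in mouse oocytes and preimplantation embryos of the C57BL/6J strain, 26 samples in 13 groups. Late 2-cell embryos formed 2 groups of 2 libraries each: embryos whose genotype is labelled as a maternal double knockout of Kdm3a and Kdm3b (mDKO), and embryos whose genotype is labelled control. Each library was made from 20 pooled embryos freed of the zona pellucida with acidic Tyrode's solution. For mDKO samples of other stages the labels describe Kdm3a f/f and Kdm3b f/f females carrying Zp3-Cre, a recombinase driven by an oocyte promoter, whose eggs were fertilized in vitro with wild-type sperm. The embryo's paternal copies of both genes are then intact. For the late 2-cell samples the labels give neither this breeding scheme nor the library kit, and they do not say whether pools came from separate matings, so p-values measure only the spread between these samples, which may be technical. In pooled embryos, fewer transcripts per embryo and fewer embryos with the transcript cannot be told apart.

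KDM3A and KDM3B are demethylases that remove methyl groups from mono- and dimethylated lysine 9 of histone H3, a mark of silenced chromatin. A mouse embryo starts with RNA and proteins stored in the oocyte. It transcribes a first, small set of genes at the end of the 1-cell and in the early 2-cell stage (minor genome activation), and many more, including those of the basic machinery of growth, in the late 2-cell stage (major genome activation), while the stored oocyte mRNAs are degraded.

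The targeted genes were examined first. Kdm3b was listed at 0.651 and 1.79 TPM in mDKO embryos, against 3.06 and 3.70 TPM in control embryos, and both mDKO libraries lay below both control libraries (log2 fold change -1.03 ± 0.32 (SE), adjusted p = 0.0383 by limma, Benjamini-Hochberg over all genes tested); this call was lost without control replicate 1, without control replicate 2 and without mDKO replicate 1, with a pseudocount of 0.1 and with no filter on low values. Kdm3a stood at 28.4 and 26.3 TPM in mDKO embryos, against 34.1 and 43.8 TPM in control embryos (log2 fold change -0.49 ± 0.17 (SE), adjusted p = 0.0573), lower in both mDKO libraries but not past the adjusted p of 0.05 used throughout. It passed without control replicate 1 (log2 fold change -0.66), with size-factor scaling and with a filter at a mean of 5 TPM. The related gene Jmjd1c had 5.67 and 4.21 TPM in mDKO embryos, against 5.29 and 5.38 TPM in control embryos (log2 fold change -0.10 ± 0.24 (SE), adjusted p = 0.747), and its groups overlapped. Since these are levels over the whole transcript, they do not read the deleted exons alone. Kdm4c, a demethylase of trimethylated H3 lysine 9, was lower, with 9.63 and 10.2 TPM in mDKO embryos, against 20.7 and 19 TPM in control embryos (log2 fold change -0.94 ± 0.18, adjusted p = 0.00552).

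Replicates correlated at Pearson r = 0.982 (mDKO) and 0.980 (control) across genes on the log2(TPM + 1) scale, and libraries of different groups at 0.915 to 0.925. The 2-cell markers were present in all 4 libraries, and the later lineage genes Cdx2 (at most 0.141 TPM) and Sox17 (at most 0.391 TPM) were low. The library of mDKO replicate 2 stood apart in some, but not all, transcripts typical of macrophages and other leukocytes. Lyz2 (lysozyme) had 6.25 and 205 TPM in mDKO embryos, against 4.53 and 4.02 TPM in control embryos. Tyrobp, an adaptor of myeloid receptors, had 0 and 40.2 TPM in mDKO embryos, against 0 and 0 TPM in control embryos. A set of 19 such genes, gathered after this was seen, summed to 107 and 728 TPM in mDKO embryos, against 82.1 and 104.6 TPM in control embryos. In this set only Cd68 and C1qb were called, both higher, and both mDKO libraries lay above both control libraries. Cd68 had 8.37 and 19.3 TPM in mDKO embryos, against 5.64 and 2.99 TPM in control embryos (adjusted p = 0.0279 by limma). C1qb had 5.23 and 12.98 TPM in mDKO embryos, against 2.91 and 2.14 TPM in control embryos (adjusted p = 0.024). Wfdc17, Fcer1g and C1qc were highest in mDKO replicate 2, with 63.3, 29.9 and 3.63 TPM. The macrophage genes Csf1r, Adgre1, Itgam, C1qa and Cd14 of this set did not pass 0.756 TPM in any library. Ptprc (CD45) did not pass 0.106 TPM, and S100a8 and S100a9 were at 0 in all 4. Of 20 cumulus and granulosa cell markers, 13 were under 1 TPM in all 4 libraries, 3 of them at 0 throughout (Lhcgr among them), and their summed level was 145 and 109 TPM in mDKO embryos, against 51.6 and 52.3 TPM in control embryos. Among them Serpine2 had 77.7 and 74.8 TPM in mDKO embryos, against 23.4 and 31.4 TPM in control embryos. Mature (MII) eggs of the study already held Serpine2 at 830 and 863 TPM (mDKO) and 820 and 882 TPM (control), so it does not mark cumulus cells alone here. Hsd3b1, another of these markers, had 41.8 and 1.51 TPM in mDKO embryos, against 4.06 and 0.086 TPM in control embryos. Of 16 blood cell markers 3 were at 0 in all 4 libraries, and the sums were 116 and 520 TPM in mDKO embryos, against 338 and 413 TPM in control embryos. Of the 7 tested none was called higher (4 without mDKO replicate 1), 3 had both mDKO libraries above both control libraries, and the 2 alpha globin genes were lower (1 of them without either mDKO library or without control replicate 1). These 2 together had 50.6 and 54.2 TPM in mDKO embryos, against 294.6 and 349.5 TPM in control embryos. Of 18 sperm markers 5 were at 0 in all 4 libraries, and the sums were 94.2 and 100.5 TPM in mDKO embryos, against 71.5 and 91.3 TPM in control embryos. The part of other cells in the results was not tested; counts without mDKO replicate 2 are given below.

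In mDKO late 2-cell embryos 2409 genes were higher (19.1% of those tested) and 2933 were lower (23.3%), and changes of 2-fold or more on the log2(TPM + 1) scale made up 1194 and 1517 of these. For every called gene both mDKO libraries lay on the same side of both control libraries. Over all 12606 genes this was so for 4513 genes with mDKO above (35.8%) and for 4742 with mDKO below (37.6%), the median log2 fold change was -0.00, and the median SE of a gene was 0.23. Without mDKO replicate 2, 1151 genes were higher and 1818 lower; 2905 of these 2969 calls were shared with the fit of all 4 libraries, none with the other sign. Without mDKO replicate 1 the counts were 1422 and 1921.

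Leaving out predicted genes, clones, small RNAs and pseudogenes (of which Apoo-ps had a log2 fold change of 4.58), the largest rise among called genes with a mean of at least 5 TPM was that of Tfec, a transcription factor of the MiT family (chr6:16830927-16898464 in mm10), at 20.8 and 23.1 TPM in mDKO embryos, against 0.355 and 1.28 TPM in control embryos (log2 fold change 3.70 ± 0.30 (SE), adjusted p = 0.000274). Mgst1, a microsomal glutathione transferase, had 31.6 and 53.4 TPM in mDKO embryos, against 3.49 and 3.61 TPM in control embryos (log2 fold change 3.21 ± 0.26). Kera, which encodes the cornea proteoglycan keratocan, had 22.2 and 27.8 TPM in mDKO embryos, against 1.41 and 3.18 TPM in control embryos (log2 fold change 3.02 ± 0.30). All 3 stood above 20 TPM in both mDKO libraries and far lower in both control libraries. Serpinb3a, a serine protease inhibitor, reached 121 and 115 TPM in mDKO embryos, against 11.9 and 20.7 TPM in control embryos (log2 fold change 2.84 ± 0.24). Stambp, a deubiquitinase, had 27.7 and 42.3 TPM in mDKO embryos, against 3.0 and 4.80 TPM in control embryos (log2 fold change 2.87 ± 0.28). Samt2 had 37.1 and 38.1 TPM in mDKO embryos, against 3.88 and 4.21 TPM in control embryos (log2 fold change 2.94 ± 0.18), and Fam90a1a 27.4 and 20.8 TPM in mDKO embryos, against 1.80 and 3.82 TPM in control embryos (log2 fold change 2.76 ± 0.30). In both mDKO libraries Samt2 was about equally high. At the early 2-cell stage Tfec (log2 fold change 2.24), Serpinb3a (1.81) and Kera (1.52) had already been higher. Mgst1, Stambp and Fam90a1a had not been called there, and Samt2 had been lower (-1.18). Of these genes only Serpinb3a had been called in MII eggs, where it was higher (log2 fold change 2.27). Anxa1 (annexin A1) and S100a1 also stood among the highest, but their level was far higher in the mDKO library with leukocyte transcripts: Anxa1 had 3.50 and 22.1 TPM in mDKO embryos, against 0.649 and 0 TPM in control embryos, with a log2 fold change of 2.99 that became 1.81 without that library; S100a1 had 7.17 and 27.8 TPM in mDKO embryos, against 1.48 and 0.841 TPM in control embryos, 2.84 that became 1.94. The Anxa1 call was lost with no filter on low values and without control replicate 1 or control replicate 2, and that of S100a1 without control replicate 2.

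Among the largest falls was Spic, an ETS-family transcription factor (chr10:88675269-88683023), at 129 and 93.3 TPM in mDKO embryos, against 967 and 848 TPM in control embryos (log2 fold change -3.03 ± 0.17 (SE), adjusted p = 0.000146). Defb42, a beta-defensin, had 2.40 and 4.29 TPM in mDKO embryos, against 69.0 and 65.5 TPM in control embryos (log2 fold change -4.01 ± 0.24). Susd3 had 1.55 and 3.44 TPM in mDKO embryos, against 33.8 and 36.0 TPM in control embryos (log2 fold change -3.41 ± 0.28). It was already lower in MII eggs (log2 fold change -4.87) and at the early 2-cell stage (log2 fold change -4.72). For all 3 the higher mDKO library stayed far below the lower control library. The glycoprotein hormone subunit gene Gpha2 had 0.317 and 1.94 TPM in mDKO embryos, against 17.3 and 23.2 TPM in control embryos (log2 fold change -3.42 ± 0.39). Rpl26, a protein of the large ribosomal subunit, had 19.6 and 29.6 TPM in mDKO embryos, against 248 and 200.4 TPM in control embryos (log2 fold change -3.16 ± 0.21), a call lost in the fit of all 12 libraries without injection. Cmss1 had 5.92 and 8.66 TPM in mDKO embryos, against 64.4 and 79.1 TPM in control embryos (log2 fold change -3.15 ± 0.21). The testis-type cytochrome c oxidase subunit gene Cox7b2 was listed at 0 TPM in both mDKO libraries, against 6.99 and 15.6 TPM in control embryos. The 2 lowest values belonged to genes with a near-identical copy, between which RSEM splits reads. Eif3j1 was listed at 0.149 and 0.0120 TPM in mDKO embryos, against 82.2 and 49.1 TPM in control embryos, but with Eif3j2 it summed to 253.9 and 218 TPM in mDKO embryos, against 386 and 427 TPM in control embryos. Plac9a was at 0 in both mDKO libraries, against 76.4 and 45.0 TPM in control embryos; with Plac9b it summed to 63.8 and 62.9 TPM in mDKO embryos, against 211 and 184 TPM in control embryos. The sums were thus lower in mDKO embryos by far less than the single copies. In all, 8 genes were under 1 TPM in both mDKO libraries and at least 10 TPM in both control libraries, and 4 the other way round; those named by the rule are microRNA genes, predicted genes, the pseudogene Apoo-ps and the copies Eif3j1 and Plac9a.

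Where a gene stood in normal development went with its direction in mDKO embryos. All genes were sorted by their change between 2 other groups of the study, mCherry-injected control early 2-cell embryos and mCherry-injected wild-type 4-cell embryos, whose tables were normalized separately; this order was chosen after the late 2-cell values were seen, and shares no library with them. Of the 1035 genes whose RNA normally fell by over 4 log2 units, 683 were higher in mDKO late 2-cell embryos and 16 lower (66.0% and 1.55%), and their median log2 fold change was 0.80. Of the 662 genes that normally rose by over 4 log2 units, 14 were higher and 521 lower (2.11% and 78.7%), with a median of -1.11. Between these ends both shares changed step by step: 36.0% higher and 2.64% lower for a normal fall of 2 to 4, 16% and 11.2% for a fall of under 2, 7.71% and 31.3% for a rise of under 2, and 3.58% and 59.4% for a rise of 2 to 4. RNA that embryos normally lose after the early 2-cell stage was thus relatively abundant in mDKO embryos, and RNA that they normally gain was relatively scarce. Across the 12606 genes the normal change and the log2 fold change in mDKO embryos had a Pearson correlation of -0.576 and a Spearman correlation of -0.598; genes are not independent replicates. Without mDKO replicate 2, 43.1% of the genes in the class with the largest normal fall were higher, and 65.1% of those in the class with the largest normal rise were lower. TPM values within a library share one total, so a rise of some genes lowers the TPM of the rest.

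**Figure D1:**
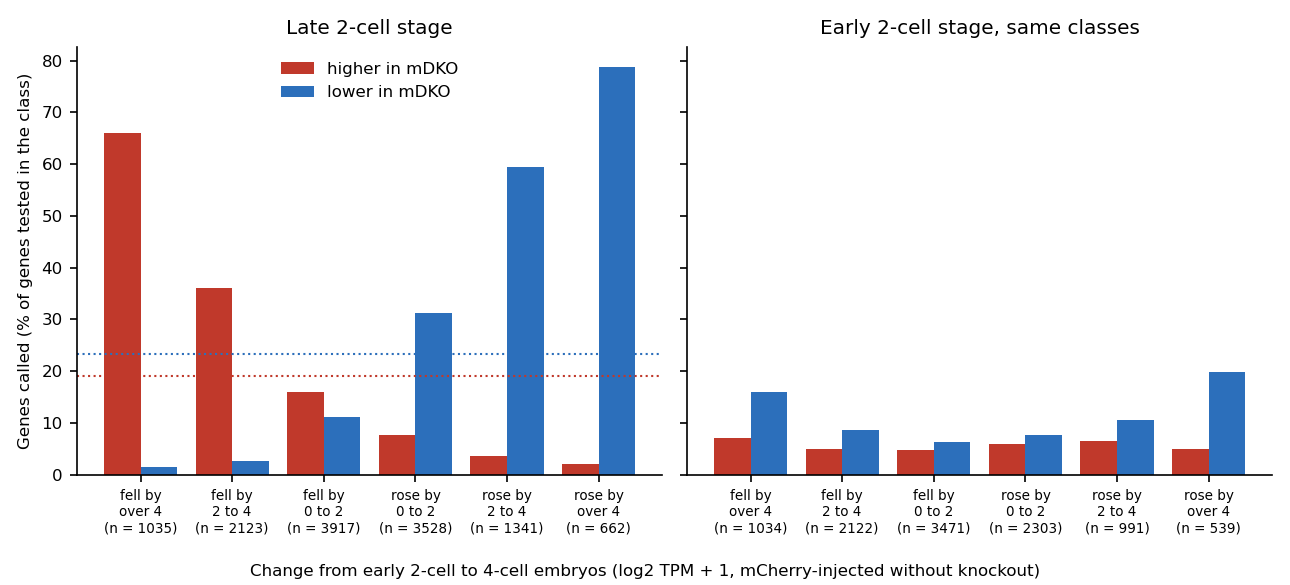
Percent of genes called higher or lower in mDKO embryos (vertical axis) by the size of the normal change from early 2-cell to 4-cell embryos in log2 units (horizontal axis), at the late 2-cell stage on the left, with dotted lines at the shares over all genes of 19.1% and 23.3%, and at the early 2-cell stage on the right. At the late 2-cell stage the share higher runs down step by step, with 66.0% and 2.11% at its ends, and the share lower runs up, with 1.55% and 78.7%; at the early 2-cell stage no class passes 19.9% in either direction.

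At the early 2-cell stage the same sorting gave no such order. In those mDKO embryos 599 genes were higher (5.38% of 11140 tested) and 1001 lower (8.99%). The class that normally falls most held 7.16% higher and 16.1% lower genes, with a median log2 fold change of -0.10, and the class that normally rises most held 5.01% and 19.9%, with a median of -0.21. The 4 classes between lay within 4.78% to 6.46% higher and 6.28% to 10.5% lower, with medians of -0.01 to 0.03. The 2 stages share no library. The difference between the mDKO effects at the late and the early 2-cell stage was itself tested over 8 libraries: it was positive for 1795 genes (13.4% of 13423) and negative for 1694 (12.6%), 26.0% in all; with median-ratio size factors the counts were 1422 and 2097. With 1 library left out, the 1795 became 1136 without early 2-cell control replicate 1, 1187 without early 2-cell control replicate 2 and 1140 without late 2-cell mDKO replicate 2. The 1694 became 1042 without early 2-cell control replicate 2 and 1094 without late 2-cell mDKO replicate 2.

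Genes of the minor activation were mostly lower early and more often higher late in mDKO embryos. Of 54 early 2-cell genes tested at the late 2-cell stage, 27 were higher in mDKO embryos and 8 lower, with a median log2 fold change of 0.53; over all genes the median was -0.00. At the early 2-cell stage, 37 of 49 had been lower and none higher, with a median of -1.63, beside 8.99% lower over all genes. Of the 49 tested at both stages, 31 had a negative value first and a positive one later. The test of the difference between stages was passed by 37 of 54, all upwards, beside 13.4% upwards over all genes. Many of these genes lie in arrays of near-identical copies that share reads, so counts of them are not counts of independent genes. Without mDKO replicate 1, 19 were higher and 5 lower. Without mDKO replicate 2, 23 were higher and 4 lower.

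The cluster of Zscan4 genes, which encode SCAN-domain zinc finger proteins of the 2-cell stage, shows this in single libraries. At the late 2-cell stage Zscan4f had 1035 and 787 TPM in mDKO embryos, against 300.0 and 223 TPM in control embryos (log2 fold change 1.80 ± 0.18 (SE), adjusted p = 0.000505). At the early 2-cell stage it had 46.0 and 70.1 TPM in mDKO embryos, against 521 and 778 TPM in control embryos (log2 fold change -3.46 ± 0.24, adjusted p = 0.000133). The mDKO libraries were thus the lowest at the early stage and the highest at the late one, and the difference between the effects was 5.26 ± 0.35, adjusted p = 3.74e-05. Zscan4b behaved likewise, with 41.4 and 31.9 TPM in mDKO embryos, against 9.19 and 7.17 TPM in control embryos at the late stage and 3.64 and 6.03 TPM in mDKO embryos, against 35.9 and 39.3 TPM in control embryos at the early stage. AF067061 (chr13:120263095-120264517) had 415 and 385 TPM in mDKO embryos, against 68.7 and 51.4 TPM in control embryos at the late stage (log2 fold change 2.73 ± 0.16, adjusted p = 0.000161). Early on it had 13.7 and 13.3 TPM in mDKO embryos, against 76.7 and 99.2 TPM in control embryos (log2 fold change -2.61 ± 0.19, adjusted p = 0.000173), and the effects differed by 5.34. Tcstv3, another gene of the 2-cell stage, had 489.7 and 478 TPM in mDKO embryos, against 163 and 122 TPM in control embryos (log2 fold change 1.77 ± 0.15) late and 49.4 and 28.9 TPM in mDKO embryos, against 77.7 and 85.9 TPM in control embryos early. Zfp352, a zinc finger gene whose transcripts mark the 2-cell stage, had 161 and 161 TPM in mDKO embryos, against 105 and 78.7 TPM in control embryos (log2 fold change 0.82 ± 0.16, adjusted p = 0.0059) late and 17.3 and 20.5 TPM in mDKO embryos, against 53.4 and 65.2 TPM in control embryos early. In each of these genes the groups lay apart at both stages, in opposite order. Usp17lb, a deubiquitinase gene, showed no such excess late: 275 and 225 TPM in mDKO embryos, against 311 and 274 TPM in control embryos (log2 fold change -0.23 ± 0.14, adjusted p = 0.214), with overlapping groups. Dux, the transcription factor that drives many of these genes in embryonic stem cells, was low, with 3.71 and 2.05 TPM in mDKO embryos, against 2.92 and 2.76 TPM in control embryos (log2 fold change -0.02 ± 0.29, adjusted p = 0.964), and its sign turned without control replicate 1 or mDKO replicate 2. The 8 members that were lower at the late stage were Prnp, Eif1a, Pramel5, Pramel6, Pramel7, Slc34a2, Obox6 and Gm13119. In control embryos Prnp had 0.319 and 0.493 TPM early and 8.35 and 16.7 TPM late. By these levels Prnp was not an early 2-cell gene here. The calls of Prnp and Slc34a2 were lost without either mDKO library, that of Gm13119 without any 1 of the 4 libraries, and that of Pramel6 without mDKO replicate 2 or control replicate 1.

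**Figure D2:**
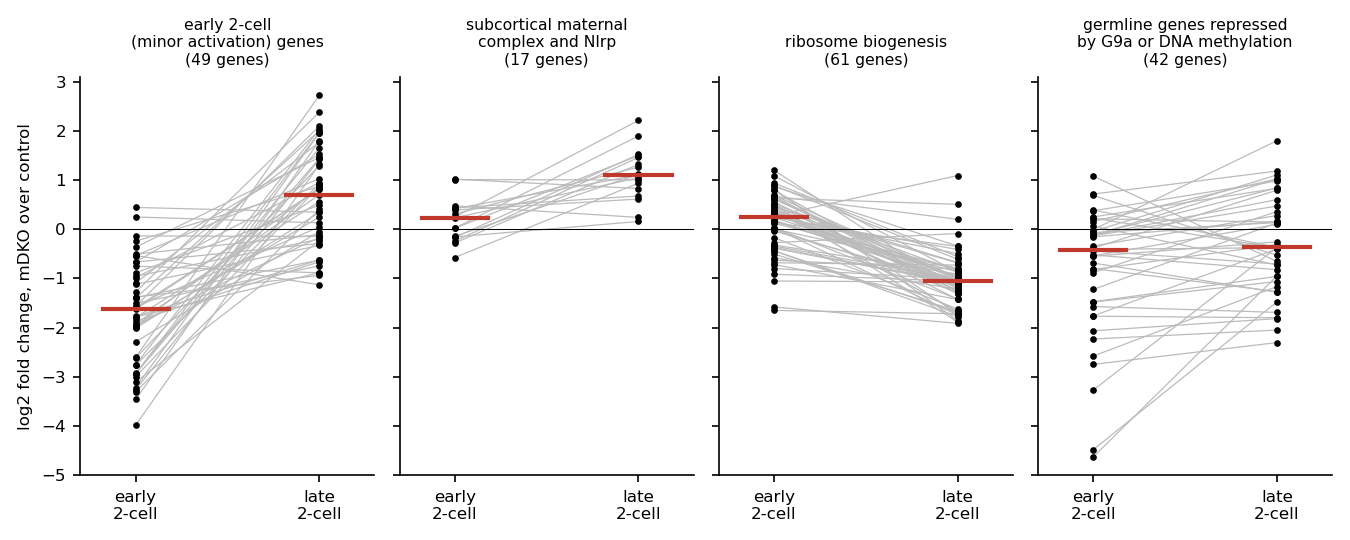
Log2 fold change, mDKO over control, of each member of 4 gene lists at the early 2-cell stage (left end of each line) and the late 2-cell stage (right end), with list medians as red bars. The medians of the early 2-cell genes tested at both stages are -1.63 and 0.71, and 31 of 49 lines cross from below to above 0; the medians of ribosome biogenesis genes are 0.26 and -1.06, those of the subcortical maternal complex 0.24 and 1.11, and those of germline genes -0.42 and -0.37.

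The start regions of 4 of these genes are given because their group differed in letters from other promoters (RefSeq, GRCm38.p6, which is mm10). The windows searched ran from 250 bases before to 50 bases after each gene's start and were found for 34 of the 54 genes. Capitals mark TAATCC or its reverse complement GGATTA, letters that paired-like homeobox proteins can bind, in Zfp352 (chr4:90218580-90218778, plus strand) and AF067061 (chr13:120262845-120262993, plus strand), and TATAAA, the TATA box, in Zscan4f (chr7:11397845-11397929, plus strand) and Zscan4b (chr7:10905036-10905120, minus strand).
Zfp352: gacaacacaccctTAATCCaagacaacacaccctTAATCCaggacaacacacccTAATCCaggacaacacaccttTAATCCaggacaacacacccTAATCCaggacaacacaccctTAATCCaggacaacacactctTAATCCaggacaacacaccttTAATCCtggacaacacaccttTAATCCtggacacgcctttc
AF067061: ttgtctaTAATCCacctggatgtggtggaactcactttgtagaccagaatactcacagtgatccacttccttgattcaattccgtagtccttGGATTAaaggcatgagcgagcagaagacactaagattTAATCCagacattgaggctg
Zscan4f: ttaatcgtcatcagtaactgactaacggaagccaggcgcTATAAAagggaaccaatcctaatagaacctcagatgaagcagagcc
Zscan4b: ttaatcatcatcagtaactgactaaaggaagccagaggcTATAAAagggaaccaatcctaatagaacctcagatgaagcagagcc
In Zfp352 TAATCC stood 9 times, 20 or 21 bases apart. Searched on both strands, TAATCC was found in 26.5% of the early 2-cell promoters and 6.15% of all 10064 promoters of tested genes, TATAAA in 26.5% and 8.31%, and CCAAT in 64.7% and 41.1%. None of the 34 held the ETS letters CCGGAAG, which were in 17.9% of all. These letters include CG (a CpG), and the early 2-cell promoters were poor in it. Their median ratio of observed to expected CpG was 0.12, against 0.75 over all. Tandem copies such as the Zscan4 genes have nearly the same promoter, so these shares do not rest on independent sequences, and a match is not a measured binding site.

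Both lists of oocyte genes held mostly higher genes in mDKO embryos, beside 19.1% higher and 23.3% lower over all genes. In the subcortical maternal complex, a protein assembly under the oocyte membrane that early cleavage needs, and its Nlrp relatives, 15 of 17 genes were higher and none lower (median 1.11). At the early 2-cell stage 2 of the 17 had been higher and none lower, beside 5.38% and 8.99% over all genes. The difference between stages was positive for 9 of the 17 and negative for none. At the late stage Zbed3 had 4395 and 5691 TPM in mDKO embryos, against 1093 and 1055 TPM in control embryos (log2 fold change 2.22 ± 0.14 (SE), adjusted p = 0.000175). Nlrp4f had 381 and 405 TPM in mDKO embryos, against 107 and 102 TPM in control embryos (log2 fold change 1.90 ± 0.11). Ooep, a core member, had 244 and 286 TPM in mDKO embryos, against 102 and 116 TPM in control embryos (log2 fold change 1.27 ± 0.13). The excess was thus large in both mDKO libraries for these 3. It was smaller for Nlrp5, at 60.3 and 60.6 TPM in mDKO embryos, against 37.8 and 40.3 TPM in control embryos (log2 fold change 0.62 ± 0.13), a call that was lost without either mDKO library and in the fit of all 12 libraries without injection, and for Khdc3, at 8.44 and 11.0 TPM in mDKO embryos, against 5.49 and 3.31 TPM in control embryos (log2 fold change 1.01 ± 0.27), a call lost without control replicate 2, without either mDKO library or with no filter on low values. Padi6 had 54.6 and 55.8 TPM in mDKO embryos, against 47.0 and 45.9 TPM in control embryos (log2 fold change 0.24 ± 0.13, adjusted p = 0.17) and was not called. Without mDKO replicate 2, 10 of the 17 were higher.

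Of 62 genes of the zona pellucida and of oocyte identity, 45 were higher and 2 lower (median 0.81), and together they held 191309 and 186454 TPM in mDKO embryos, against 133022 and 128657 TPM in control embryos. At the early 2-cell stage 14 of 61 tested had already been higher and 4 lower, beside 5.38% and 8.99% over all genes. The difference between stages was positive for 33 of 62 and negative for 2, beside 13.4% and 12.6%. At the late stage the oocyte linker histone gene H1foo had 387 and 447 TPM in mDKO embryos, against 77.5 and 109 TPM in control embryos (log2 fold change 2.17 ± 0.17). H1foo had been higher early as well (log2 fold change 1.83), and its difference between stages was not called. Among secreted factors of the oocyte, Bmp15 had 546 and 657 TPM in mDKO embryos, against 201 and 243 TPM in control embryos (log2 fold change 1.44 ± 0.14) and Gdf9 215 and 241 TPM in mDKO embryos, against 92.5 and 104 TPM in control embryos (log2 fold change 1.21 ± 0.13). The 2 lower genes both encode proteins of the egg surface or coat: Cd9, needed for sperm fusion, had 83.5 and 109.5 TPM in mDKO embryos, against 310.5 and 266 TPM in control embryos (log2 fold change -1.58 ± 0.16). Zp3, a zona protein, had 62.9 and 63.1 TPM in mDKO embryos, against 103 and 101 TPM in control embryos (log2 fold change -0.69 ± 0.12, adjusted p = 0.00409). Without mDKO replicate 2, 35 genes of this list were higher and 2 lower.

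Factors that store or clear maternal mRNA were divided (median 0.00). Of 59, 19 were higher (32.2%, against 19.1% over all genes) and 11 lower (18.6%, against 23.3%). Zar1, which holds stored mRNA in the oocyte, had 92.7 and 98.3 TPM in mDKO embryos, against 18.5 and 24.5 TPM in control embryos (log2 fold change 2.11 ± 0.17). At the early 2-cell stage 3 of 56 genes of this list had been higher, Zar1 among them (log2 fold change 1.47), and none lower. Btg4, an adaptor that brings the CCR4-NOT deadenylase to maternal mRNA, had 5841 and 6529 TPM in mDKO embryos, against 1920.1 and 1468 TPM in control embryos (log2 fold change 1.88 ± 0.14). Its relative Btg1 went the other way, with 21.7 and 17.7 TPM in mDKO embryos, against 58.8 and 61.5 TPM in control embryos (log2 fold change -1.57 ± 0.16). The CCR4-NOT complex shortens poly(A) tails; of its 10 subunits tested, a set picked after the values were seen, 5 were higher and 3 lower. Cnot7, of a catalytic subunit, had 821 and 817 TPM in mDKO embryos, against 399.7 and 384 TPM in control embryos (log2 fold change 1.06 ± 0.10). Cnot11 had 13.1 and 20.2 TPM in mDKO embryos, against 4.03 and 5.74 TPM in control embryos (log2 fold change 1.57 ± 0.27). Cnot1, the scaffold, had 20.5 and 21.3 TPM in mDKO embryos, against 35.7 and 38.5 TPM in control embryos (log2 fold change -0.80 ± 0.15) and was lower, as was Cnot8, a paralogue of Cnot7, at 155 and 161 TPM in mDKO embryos, against 229 and 263 TPM in control embryos (log2 fold change -0.63 ± 0.12), a call lost in the fit of all 12 libraries without injection. The catalytic subunit gene Cnot6l was higher (log2 fold change 0.86 ± 0.17) and Cnot6 was not called, so catalytic subunits stood on both sides. With 1 library left out, the 11 lower genes of this list became 5 without mDKO replicate 1 and 6 without mDKO replicate 2. The 19 higher genes of this list became 12 without mDKO replicate 2.

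Genes of the basic machinery were mostly lower. In 13 lists of such genes 677 were tested, with a median of -0.70. Among these 406 were lower (60.0%, against 23.3% over all genes) and 58 higher (8.57%, against 19.1%). Their direction also followed the normal change: of those that normally rose by over 4 log2 units, 142 of 157 were lower and none higher, while of those that normally fell by over 4, 7 of 11 were higher and none lower. Of the 28 that normally fell by 2 to 4, 15 were higher and none lower. The 122 that normally fell by under 2 were split, with 23 higher and 21 lower and a median of -0.06. Within the same machinery, RNAs that normally fell by over 2 log2 units thus stood on the other side from those normally gained. Those with a smaller normal fall did not.

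In the mitochondria, 37 of 80 ribosomal protein genes were lower (46.25%, against 23.3% over all genes) and 9 higher (median -0.47). For the respiratory chain and ATP synthase, 33 of 74 genes were lower (44.6%) and 9 higher (median -0.38). Mrps18c, of the small mitochondrial subunit, had 45.8 and 63.9 TPM in mDKO embryos, against 253 and 291 TPM in control embryos (log2 fold change -2.31 ± 0.18 (SE), adjusted p = 0.000247). Mrpl20, of the large subunit, had 56.0 and 67.9 TPM in mDKO embryos, against 243 and 266 TPM in control embryos (log2 fold change -2.03 ± 0.14), whereas Mrpl53 of the same subunit had 203 and 219.8 TPM in mDKO embryos, against 80.3 and 105 TPM in control embryos (log2 fold change 1.19 ± 0.15). Both groups lay apart in each of these genes, in opposite order for the last. Cox7c, a subunit of cytochrome c oxidase, had 126 and 128 TPM in mDKO embryos, against 569 and 790.3 TPM in control embryos (log2 fold change -2.39 ± 0.16 (SE), adjusted p = 0.000192). Uqcrb, of complex III, had 141 and 151 TPM in mDKO embryos, against 482 and 503 TPM in control embryos (log2 fold change -1.75 ± 0.11). In fits without 1 library, the 9 higher mitochondrial ribosomal protein genes became 3 without mDKO replicate 2. The 9 higher respiratory chain genes became 2 without mDKO replicate 2.

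Of 51 cytosolic translation factors 34 were lower (66.7%, against 23.3% over all genes) and 2 higher (median -0.70). The eIF3 complex, which binds the small ribosomal subunit at initiation, was low in nearly all its parts: 11 of the 12 subunits tested were lower and none higher, with a median of -1.31, a set picked after the values were seen. Eif3m had 27.4 and 33.9 TPM in mDKO embryos, against 147 and 139 TPM in control embryos (log2 fold change -2.19 ± 0.15 (SE), adjusted p = 0.000192). Eif3a had 59.2 and 62.3 TPM in mDKO embryos, against 172 and 167 TPM in control embryos (log2 fold change -1.47 ± 0.12). Eif3b had 4.51 and 9.74 TPM in mDKO embryos, against 23.0 and 28.2 TPM in control embryos (log2 fold change -1.78 ± 0.32). Eif3i was the subunit not called. The 2 higher factors were Eif4e1b, an oocyte form of the cap-binding protein, at 78.9 and 74.5 TPM in mDKO embryos, against 23.1 and 31.6 TPM in control embryos (log2 fold change 1.47 ± 0.18, adjusted p = 0.000906), and Eif1b, at 356 and 472 TPM in mDKO embryos, against 161 and 157 TPM in control embryos (log2 fold change 1.36 ± 0.15). Of 21 aminoacyl-tRNA synthetases 9 were lower (42.9%) and 1 higher (median -0.47). Rars, which charges arginine tRNA, had 38.7 and 26.1 TPM in mDKO embryos, against 148 and 105 TPM in control embryos (log2 fold change -1.94 ± 0.23), and Farsb, for phenylalanine, was the higher one at 117 and 107 TPM in mDKO embryos, against 62.9 and 68.8 TPM in control embryos (log2 fold change 0.76 ± 0.13). When a library was left out, the 9 lower synthetases became 4 without control replicate 2 and 3 without mDKO replicate 1 or mDKO replicate 2.

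Nucleotide and one-carbon synthesis was lower in 26 of 42 genes (61.9%, against 23.3% over all genes) and higher in 5 (median -0.80). Umps, which makes uridine monophosphate, had 7.92 and 7.73 TPM in mDKO embryos, against 30.9 and 35.3 TPM in control embryos (log2 fold change -1.95 ± 0.17). Impdh2, of guanine nucleotide synthesis, had 46.4 and 56.4 TPM in mDKO embryos, against 174 and 212 TPM in control embryos (log2 fold change -1.89 ± 0.16). Mthfd2, a mitochondrial folate enzyme, was higher, with 209 and 215 TPM in mDKO embryos, against 85.1 and 84.4 TPM in control embryos (log2 fold change 1.31 ± 0.11). Glycolysis and the TCA cycle had no common direction (median 0.10). In this list of 42 genes, 12 were higher (28.6%, against 19.1% over all genes) and 9 lower (21.4%, against 23.3%). Its largest difference was in Ldhb, a lactate dehydrogenase subunit abundant in oocytes, at 1704 and 1744 TPM in mDKO embryos, against 383 and 493 TPM in control embryos (log2 fold change 1.98 ± 0.13 (SE), adjusted p = 0.000192). The cytosolic malate dehydrogenase gene Mdh1 had 66.0 and 68.1 TPM in mDKO embryos, against 35.8 and 29.5 TPM in control embryos (log2 fold change 1.02 ± 0.15). The mitochondrial Mdh2 had 186 and 165 TPM in mDKO embryos, against 319.5 and 365 TPM in control embryos (log2 fold change -0.96 ± 0.12). The cytosolic isocitrate dehydrogenase Idh1 had 12.2 and 9.20 TPM in mDKO embryos, against 2.74 and 2.28 TPM in control embryos (log2 fold change 1.73 ± 0.24). Idh3g, a subunit of a different, mitochondrial isocitrate dehydrogenase, had 41.0 and 46.3 TPM in mDKO embryos, against 157 and 152 TPM in control embryos (log2 fold change -1.80 ± 0.13). Mdh1 and Idh1, of cytosolic enzymes, were thus higher, and Mdh2 and Idh3g, of mitochondrial enzymes, lower. With 1 library left out, the 9 lower glycolysis and TCA cycle genes became 5 without control replicate 2 and 4 without mDKO replicate 2. The 12 higher glycolysis and TCA cycle genes became 7 without mDKO replicate 1 and 5 without mDKO replicate 2.

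In further parts of the cell's machinery the shares of lower genes varied, beside 23.3% lower and 19.1% higher over all genes. Of 52 nuclear pore and transport genes 23 were lower (44.2%) and 8 higher (15.4%), with a median of -0.31. Nxt2, an mRNA export factor, had 27.9 and 22.4 TPM in mDKO embryos, against 72.8 and 65.5 TPM in control embryos (log2 fold change -1.43 ± 0.16). It was already lower in MII eggs (log2 fold change -2.44) and at the early 2-cell stage (-4.18). Of 14 genes of the CCT chaperonin and its partner prefoldin, which fold actin and tubulin, 8 were lower and 1 higher (median -0.59): Pfdn6 had 115 and 108 TPM in mDKO embryos, against 357 and 417 TPM in control embryos (log2 fold change -1.78 ± 0.12), and Pfdn4 was the higher one, with 324 and 318 TPM in mDKO embryos, against 163 and 138 TPM in control embryos (log2 fold change 1.09 ± 0.12). Subunits of the same complex thus stood on both sides. DNA replication had 18 of 50 lower (36.0%) and 7 higher (14.0%), with a median of -0.20. The primase subunit gene Prim2 had 8.49 and 8.53 TPM in mDKO embryos, against 32.8 and 26.4 TPM in control embryos (log2 fold change -1.68 ± 0.18). Of 35 heat shock and endoplasmic reticulum chaperones 13 were lower (37.1%) and 6 higher (17.1%), with a median of -0.24. Hspa5 (BiP) had 108 and 94.8 TPM in mDKO embryos, against 214 and 267 TPM in control embryos (log2 fold change -1.23 ± 0.15). Cell cycle genes had no common direction, with 21 of 71 lower (29.6%) and 17 higher (23.9%), near the shares over all genes (median 0.05). Of 20 p53 targets 7 were lower (35.0%) and 1 higher (5.0%). The 17 interferon response genes, 3 lower (17.6%) and 4 higher (23.5%), were near the shares over all genes. In fits without 1 library, the 23 lower nuclear pore and transport genes became 15 without control replicate 2, 12 without mDKO replicate 1 and 9 without mDKO replicate 2. The 8 higher nuclear pore and transport genes became 4 without control replicate 1, 5 without mDKO replicate 1 and 3 without mDKO replicate 2. The 18 lower DNA replication genes became 11 without control replicate 2. The 7 higher DNA replication genes became 3 without control replicate 1 and 2 without mDKO replicate 1 or mDKO replicate 2. The 8 lower chaperonin and prefoldin genes became 4 without mDKO replicate 2. The 13 lower heat shock and endoplasmic reticulum chaperones became 8 without mDKO replicate 1. The 21 lower cell cycle genes became 13 without mDKO replicate 2. The 17 higher cell cycle genes became 11 without mDKO replicate 1 and 10 without mDKO replicate 2. The 3 higher SUMO pathway genes became 1 without mDKO replicate 1 or mDKO replicate 2. The 3 lower interferon response genes became 1 without mDKO replicate 2. The 4 higher interferon response genes became 2 without control replicate 1.

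**Figure D3:**
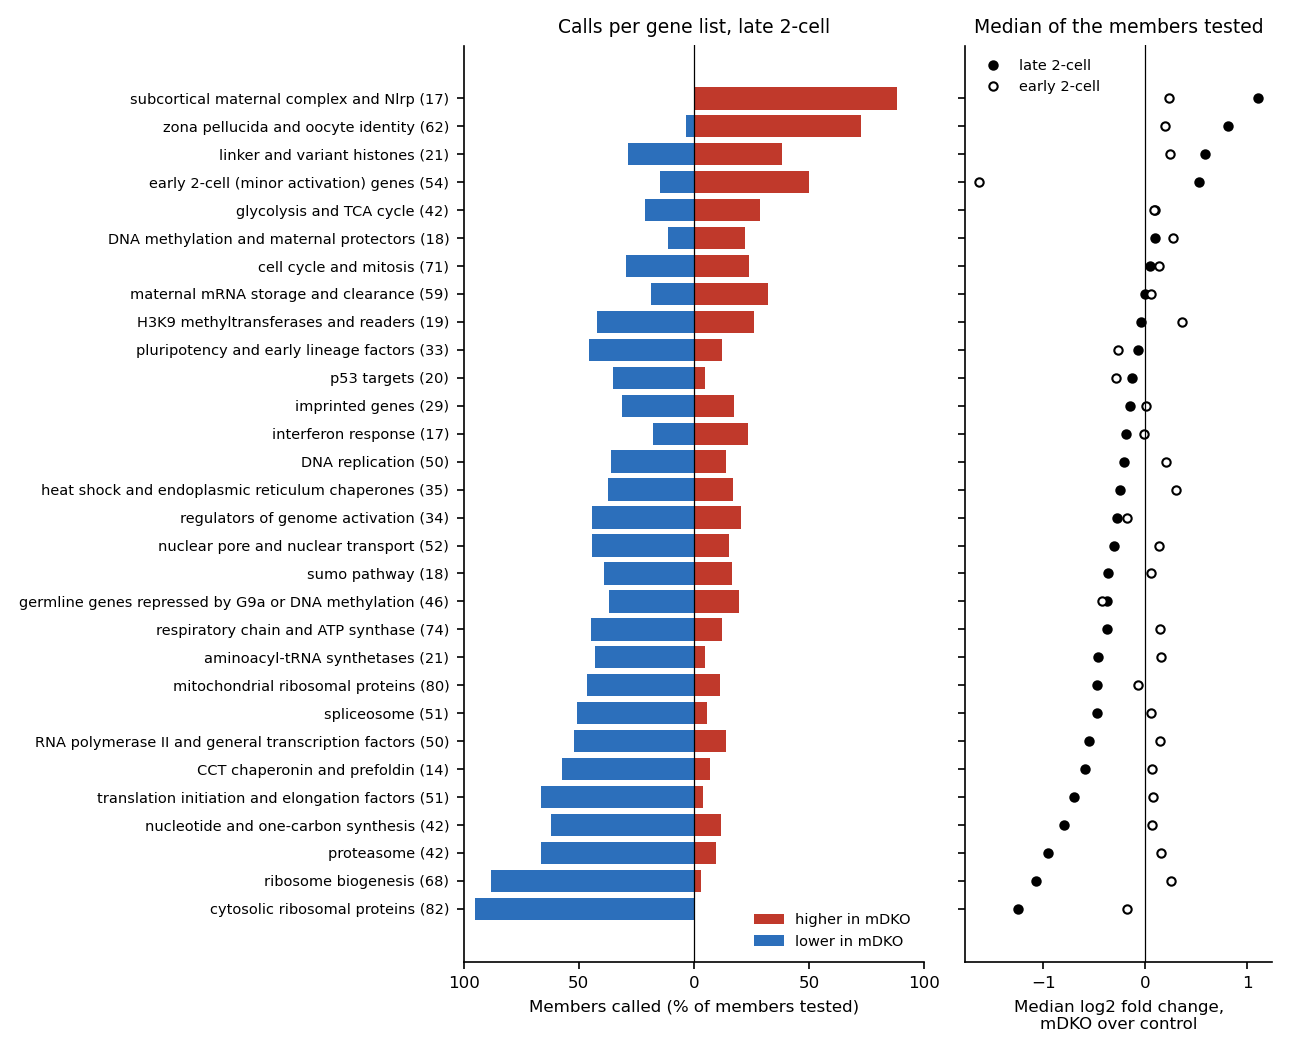
Percent of the tested members of each gene list called higher or lower in mDKO late 2-cell embryos (left, horizontal axis) and the median log2 fold change of the list (right, horizontal axis) at the late (filled) and early (open) 2-cell stage. Oocyte lists stand at the higher end, with medians of 1.11 and 0.81, and the cytosolic ribosomal proteins and ribosome biogenesis at the lower end, with -1.25 and -1.07; the list of early 2-cell genes moves most between the stages.

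Genes of the chromatin that KDM3 proteins act on were divided. Of 19 H3K9 methyltransferases and readers 8 were lower (42.1%, against 23.3% over all genes) and 5 higher (26.3%, against 19.1%). Their median was -0.04. The 3 HP1 proteins, which bind methylated H3 lysine 9, differed in direction: Cbx3 had 84.6 and 80.7 TPM in mDKO embryos, against 194 and 206 TPM in control embryos (log2 fold change -1.27 ± 0.11). Cbx5 had 12.0 and 14.1 TPM in mDKO embryos, against 30.6 and 30 TPM in control embryos (log2 fold change -1.16 ± 0.17). Cbx1 had 126 and 134 TPM in mDKO embryos, against 79.3 and 86.6 TPM in control embryos (log2 fold change 0.64 ± 0.12), a call lost without mDKO replicate 2. Trim28, the corepressor that recruits H3K9 methyltransferases to repeats and imprints, had 23.3 and 21.4 TPM in mDKO embryos, against 54.6 and 59.0 TPM in control embryos (log2 fold change -1.31 ± 0.14) at the late 2-cell stage. At the early stage it had 33.5 and 16.9 TPM in mDKO embryos, against 5.76 and 4.87 TPM in control embryos (log2 fold change 1.98 ± 0.32, adjusted p = 0.00571), so mDKO embryos were high early and low late, and the effects differed by -3.29 ± 0.39, adjusted p = 0.00049. The SUMO modifier gene Sumo2 turned in the same way, with 485 and 555 TPM in mDKO embryos, against 1835 and 1797 TPM in control embryos late (log2 fold change -1.81 ± 0.11) and 228 and 216 TPM in mDKO embryos, against 47.7 and 39.6 TPM in control embryos early, a difference of -4.13 ± 0.18, adjusted p = 1.00e-05; of the 18 SUMO pathway genes 7 were lower and 3 higher late (median -0.36). Setdb2 had 37.8 and 40.2 TPM in mDKO embryos, against 82.6 and 92.4 TPM in control embryos (log2 fold change -1.14 ± 0.13), whereas Zfp809, which silences retroviruses, had 179 and 168 TPM in mDKO embryos, against 90.8 and 81.5 TPM in control embryos (log2 fold change 1.0 ± 0.12). The H3K9 methyltransferase genes Ehmt1 and Ehmt2 had log2 fold changes of -0.71 and -0.80, and both calls were lost whichever library was left out and with no filter on low values.

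Among DNA methylation genes and maternal protectors of methylation 4 of 18 were higher (22.2%, against 19.1% over all genes) and 2 lower (median 0.10). Uhrf1, which brings DNMT1 to replicating DNA, had 39.7 and 47.2 TPM in mDKO embryos, against 7.93 and 10.7 TPM in control embryos (log2 fold change 2.11 ± 0.20 (SE), adjusted p = 0.000426), and the 5-methylcytosine oxidase Tet3 had 21.8 and 25.5 TPM in mDKO embryos, against 7.43 and 9.27 TPM in control embryos (log2 fold change 1.40 ± 0.20). At the early 2-cell stage 3 of 16 genes of this list had been higher and none lower. Uhrf1 (log2 fold change 1.02) and Tet3 (1.08) were among them. Dnmt1 itself had 11.5 and 11.3 TPM in mDKO embryos, against 12.2 and 12.2 TPM in control embryos (log2 fold change -0.09 ± 0.18, adjusted p = 0.726) and was not called. Of 21 linker and variant histones 8 were higher (38.1%, against 19.1% over all genes) and 6 lower (28.6%, against 23.3%). Their median was 0.59. H2afz (H2A.Z) had 1854 and 1601 TPM in mDKO embryos, against 4553 and 4442 TPM in control embryos (log2 fold change -1.38 ± 0.11), and the centromere histone gene Cenpa had 231 and 224 TPM in mDKO embryos, against 542 and 529 TPM in control embryos (log2 fold change -1.23 ± 0.10), both below control, in contrast to the oocyte histone H1foo. When a library was left out, the 8 lower H3K9 methyltransferases and readers became 5 without control replicate 2 or mDKO replicate 2. The 5 higher H3K9 methyltransferases and readers became 3 without control replicate 1 and 2 without mDKO replicate 2. The 4 higher DNA methylation genes became 2 without mDKO replicate 2. The 8 higher linker and variant histone genes became 5 without control replicate 1, 3 without mDKO replicate 1 and 4 without mDKO replicate 2.

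Pluripotency and early lineage factors were lower in 15 of 33 tested (45.5%, against 23.3% over all genes) and higher in 4 (12.1%, against 19.1%). Their median was -0.07. Prdm14 had 1.56 and 0.936 TPM in mDKO embryos, against 12.4 and 10.8 TPM in control embryos (log2 fold change -2.50 ± 0.25 (SE), adjusted p = 0.000498). Dppa5a had 564 and 744 TPM in mDKO embryos, against 3101 and 2792 TPM in control embryos (log2 fold change -2.18 ± 0.15), and the growth factor gene Fgf4 had 4.81 and 4.96 TPM in mDKO embryos, against 20.5 and 20.3 TPM in control embryos (log2 fold change -1.86 ± 0.19). These 3 were all lower in both mDKO libraries by well over 2-fold. Klf2 and Esrrb, transcription factors of naive pluripotent cells, were also lower, with log2 fold changes of -1.59 and -1.31. Pou5f1 (OCT4), stored in the oocyte, was higher with 49.3 and 58.8 TPM in mDKO embryos, against 20.6 and 34.1 TPM in control embryos (log2 fold change 0.99 ± 0.24), a call lost without mDKO replicate 2 or with no filter on low values, and Nanog was not called (log2 fold change 0.63 ± 0.23, adjusted p = 0.0589). Of 34 regulators of genome activation 15 were lower (44.1%) and 7 higher (20.6%), with a median of -0.28. The lower Dppa4 had 276 and 255 TPM in mDKO embryos, against 777 and 698 TPM in control embryos (log2 fold change -1.47 ± 0.11).

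Germline genes kept silent by G9a or DNA methylation in other cells had a median of -0.37. They were lower in 17 of 46 tested (37.0%, against 23.3% over all genes) and higher in 9 (19.6%, against 19.1%). Tex101 had 54.0 and 80.9 TPM in mDKO embryos, against 320.4 and 342 TPM in control embryos (log2 fold change -2.31 ± 0.19). Tex19.1 had 36.7 and 31.0 TPM in mDKO embryos, against 99.5 and 148 TPM in control embryos (log2 fold change -1.82 ± 0.20). Sycp3, of the synaptonemal complex, had 374 and 313 TPM in mDKO embryos, against 776 and 658 TPM in control embryos (log2 fold change -1.06 ± 0.13). Magea10 was higher, with 48.7 and 61.0 TPM in mDKO embryos, against 13.4 and 16.5 TPM in control embryos (log2 fold change 1.80 ± 0.18), as were Ddx4, at 92.1 and 89.5 TPM in mDKO embryos, against 44.9 and 34.4 TPM in control embryos (log2 fold change 1.19 ± 0.16), and Dazl, at 119 and 144 TPM in mDKO embryos, against 59.5 and 60.9 TPM in control embryos (log2 fold change 1.11 ± 0.14). The last 2 encode germ cell RNA-binding proteins that oocytes express. Of 29 imprinted genes tested 9 were lower (31.0%, against 23.3% over all genes) and 5 higher (17.2%, against 19.1%), with a median of -0.15. Phlda2, expressed from the maternal allele in the placenta, had 107 and 103 TPM in mDKO embryos, against 351 and 425 TPM in control embryos (log2 fold change -1.87 ± 0.13). It was already lower in MII eggs (log2 fold change -2.02) and at the early 2-cell stage (-2.37). Snrpn, expressed from the paternal allele in brain, had 37.4 and 36.1 TPM in mDKO embryos, against 80.9 and 85.1 TPM in control embryos (log2 fold change -1.15 ± 0.13). Gnas had 181 and 218 TPM in mDKO embryos, against 51.3 and 67.3 TPM in control embryos (log2 fold change 1.74 ± 0.17). With 1 library left out, the 15 lower pluripotency and lineage factors became 9 without mDKO replicate 1 and 8 without mDKO replicate 2. The 4 higher pluripotency and lineage factors became 2 without control replicate 1, 1 without mDKO replicate 1 and 0 without mDKO replicate 2. The 9 lower imprinted genes became 5 without control replicate 1 or control replicate 2 and 3 without mDKO replicate 2. The 5 higher imprinted genes became 2 without mDKO replicate 1 and 1 without mDKO replicate 2. The 17 lower germline genes became 11 without mDKO replicate 1. The 15 lower regulators of genome activation became 8 without mDKO replicate 2. The 7 higher regulators of genome activation became 4 without mDKO replicate 2.

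**Figure D4:**
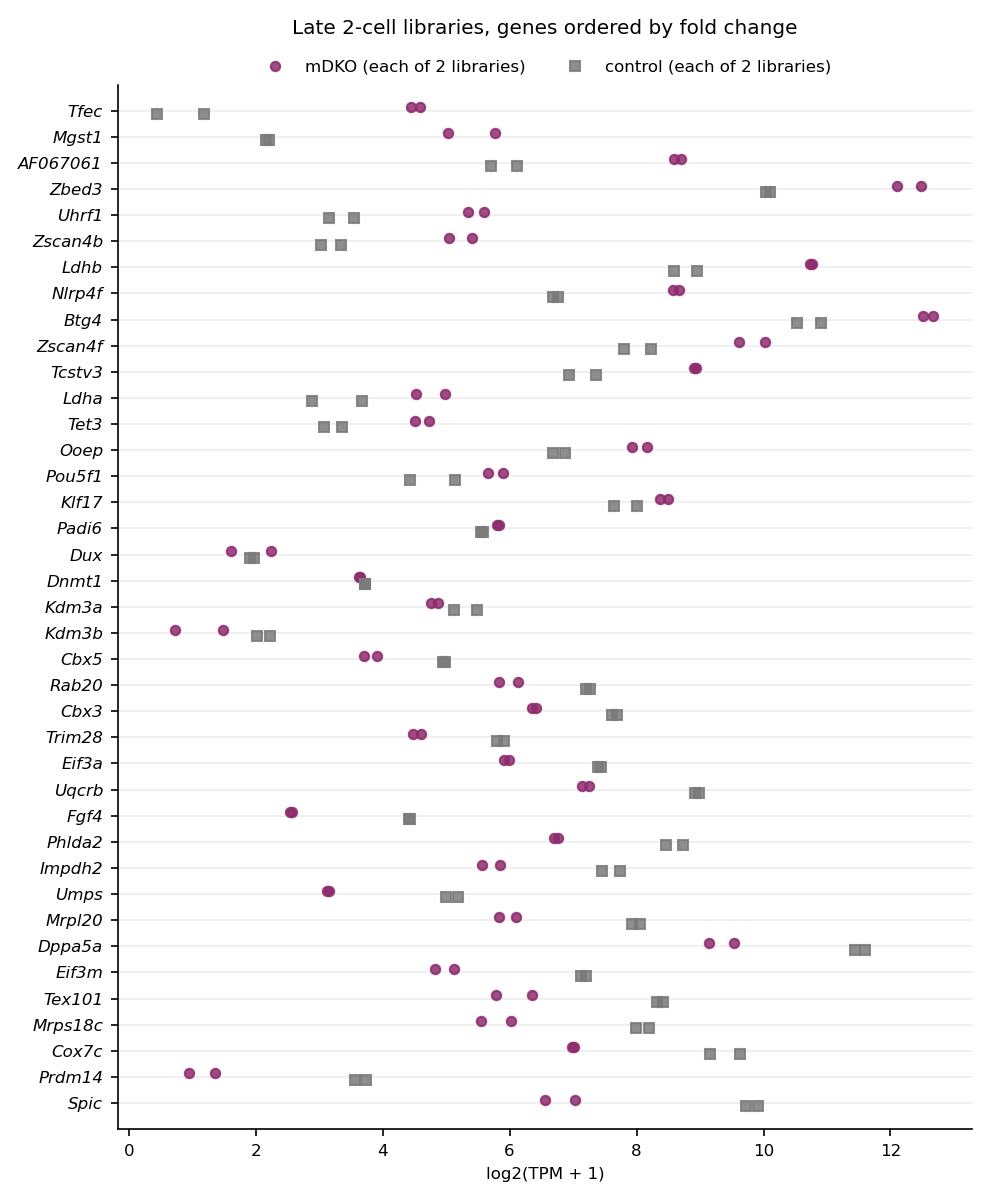
Level of 39 genes, most of them named in the text (vertical axis), in each late 2-cell library on the log2(TPM + 1) scale (horizontal axis), mDKO libraries as circles and control libraries as squares. For the called genes the circles lie wholly to 1 side of the squares; Kdm3a, Padi6, Dnmt1 and Dux were not called.

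Sorted by their earlier levels in control embryos, genes not yet detected in control eggs or early 2-cell embryos were mostly not called (859 of 1325). In this class 354 were lower and 112 higher (26.7% and 8.45%, against 23.3% and 19.1% over all genes), with a median of -0.30. With a mean of at least 5 TPM, 149 of its 270 genes were lower and 13 higher (55.2% and 4.81%). Over all genes with that mean the shares were 30.5% and 23.3%. Fits without 1 library called fewer genes over all genes as well as in the classes below. The 26.7% became 15.2% without mDKO replicate 2, 17.1% without mDKO replicate 1 and 15.85% without control replicate 2. The most abundant was Rab20, a small GTPase gene, with 69.2 and 56.2 TPM in mDKO embryos, against 147 and 153 TPM in control embryos (log2 fold change -1.25 ± 0.14). Lst1 had 36.9 and 49.7 TPM in mDKO embryos, against 96.3 and 93.7 TPM in control embryos (log2 fold change -1.13 ± 0.17). Genes that rise between the egg and the early 2-cell stage were split, with 491 of 1676 higher (29.3%) and 438 lower. Without mDKO replicate 2, 17.6% were higher, and without mDKO replicate 1, 18.85%. Of the genes carried at a like level through both stages, 1225 of 5611 were higher and 1363 lower (21.8% and 24.3%), close to the shares over all genes. These were 10.5% and 15.8% without mDKO replicate 2, and the first was 13.4% without mDKO replicate 1. Of 1885 genes that fall between these stages 333 were higher (17.7%) and 277 lower. The share higher was 6.37% without mDKO replicate 2, 9.97% without mDKO replicate 1 and 11.4% without control replicate 1.

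Calls at the late 2-cell stage were set against those at the earlier stages, which share no library with them. Of the 599 genes higher in early 2-cell mDKO embryos, 40.6% were higher late as well, which is 10.1% of the genes higher late. Of the 1001 genes lower early, 32.4% were lower late, which is 11.0% of the genes lower late. The opposite also occurred: 137 genes were higher early and lower late, and 153 lower early and higher late. Among the 575 genes higher early that were tested late the median late log2 fold change was 0.41, and among the 955 lower early it was -0.26; over the 10460 genes tested at both stages, 21.5% were higher late and 22.4% lower. In mDKO MII eggs 91 genes were higher (0.845% of 10765 tested) and 367 lower (3.41%), 4.25% in all. Of the 88 higher ones tested late, 47 were higher in late 2-cell embryos (53.4%) and 18 lower (20.5%). Among the 305 lower ones tested late, 79 were lower (25.9%) and 40 higher (13.1%). Over the 9547 genes tested both in MII eggs and late, 21.0% were higher late and 23.0% lower. The 25.9% was thus near the share over all these genes.

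Promoters of lower genes held more of the ETS letters. CCGGAAG, searched on both strands, was in 17.9% of the 10064 promoters found, in 14.3% of those of higher genes and in 23.9% of those of lower genes; for changes of at least 2-fold the shares were 10.3% and 25.0%. With a match at any listed start the shares were 19.3% over all, 16% for higher and 25.5% for lower genes. The ratio of observed to expected CpG had a median of 0.75 over all, 0.68 in higher and 0.79 in lower genes. By list, CCGGAAG was in 40.0% of the promoters of proteasome genes, 39.3% of those of cytosolic ribosomal proteins and 34.3% of those of mitochondrial ribosomal proteins, against 3.92% of those of zona and oocyte genes. In the same order the median CpG ratio was 0.80, 0.91, 0.82 and 0.20, and its part in these shares was not tested. Among genes not yet detected 8.61% of promoters held CCGGAAG. A run of pyrimidines after a C at the start, as in mRNAs with a 5' terminal oligopyrimidine tract, was in 47.5% of cytosolic ribosomal protein promoters and 19.9% of all. By call this run differed little, with 19.3% of higher and 21.1% of lower genes. These are shares of letters, not measured binding. Start regions of 4 genes lower in mDKO embryos show both features, with capitals for CCGGAAG or its reverse complement CTTCCGG in Eif3m (chr2:105017013-105017097, minus strand) and Pfdn6 (chr17:33940329-33940413, minus strand), and for the pyrimidine run in Rpl14 (chr9:120571447-120571531, plus strand) and Cox7c (chr13:86046781-86046865, minus strand).
Eif3m: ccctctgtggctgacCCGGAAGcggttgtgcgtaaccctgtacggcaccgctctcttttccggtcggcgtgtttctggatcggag
Pfdn6: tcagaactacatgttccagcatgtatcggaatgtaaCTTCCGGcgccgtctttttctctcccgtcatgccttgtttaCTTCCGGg
Rpl14: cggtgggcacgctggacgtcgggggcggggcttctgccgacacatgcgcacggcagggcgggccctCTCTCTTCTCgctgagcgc
Cox7c: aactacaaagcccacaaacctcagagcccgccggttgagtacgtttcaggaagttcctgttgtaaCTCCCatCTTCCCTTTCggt
In Pfdn6 the ETS letters stood 2 times in this stretch. Rpl14 had 35.6 and 48.8 TPM in mDKO embryos, against 196 and 203 TPM in control embryos (log2 fold change -2.23 ± 0.17, adjusted p = 0.000238).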

How the data were processed

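Polyadenylated RNA was sequenced from 2 mDKO and 2 control pools of late 2-cell embryos. The authors deposited TPM values. RSEM 1.3.1, STAR 2.7.10b, SAMtools 1.9, Bowtie2 2.3.4.1 and the build mm10 are listed, without roles, in the notes on processing from the submitters. Since TPM keeps no depth, counting errors cannot be given; RSEM shares reads among near-identical copies.

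Genes with at least 1 TPM in at least 2 of the 4 libraries were tested as log2(TPM + 1), which understates changes of low genes, with limma 3.58.1 in R 4.3.3 (trended eBayes, two-sided, Benjamini-Hochberg over all genes tested). A gene was called at an adjusted p under 0.05, and 6478 genes had an unadjusted p under 0.05. The 4 early 2-cell and 4 MII libraries were tested alike, and the difference between stages in 1 fit of 8 libraries. A permutation test of 2 against 2 libraries cannot go below p = 0.333, so none is given. Classes use control MII and early 2-cell levels: not yet detected (under 1 TPM in all 4), up or down (a change of at least 2 log2 units, at least 5 TPM), carried (at least 1 TPM in all 4), and other.

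Genes, lists and tests were chosen with earlier results of these data known. Named genes are the targeted genes, the 10 highest and 10 lowest called genes with a mean of at least 5 TPM and no predicted-gene, clone, pseudogene or small-RNA name, the 2 largest called members of each list and the largest in the other direction, the most abundant not yet detected and carried genes, and the 5 largest differences between stages each way under the same limits. Further members, subunit sets and leukocyte transcripts were picked after their values were seen. RefSeq matched 12551 members by symbol and held a promoter for 10064. Alternatives were other scalings, filters and pseudocounts, 1 fit of all 12 libraries, each library left out, and a replicate block. Replicate numbers do not pair the samples (r = 0.0502 between deviations of same-numbered libraries, over 12606 genes). Python 3.11.15, pandas 2.3.3 and matplotlib 3.10.9 were used for tables and figures.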

Additional observations from a re-analysis of the deposited data

Results flagged for a closer look

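The mDKO effect on log2(TPM + 1) differed between the late and the early 2-cell stage by the limma test of the difference itself in 13 genes given here, most of them named for the size of this difference. The values are the late effect minus the early one. They were positive for AF067061 (5.34), Zscan4f (5.26), Zscan4c (5.18), Zscan4b (4.79), the pseudogene Apoo-ps (4.58), Zscan4d (4.38) and Samt2 (4.12). They were negative for Eif3j1 (-9.59), Plac9a (-5.76), Sumo2 (-4.13), Defb42 (-3.73), Cox7b2 (-3.53) and Trim28 (-3.29). Plac9a and Cox7b2 were at 0 in both late mDKO libraries and passed the filter on low values through control libraries. At the late stage Apoo-ps passed it only through mDKO libraries and Eif3j1 only through control libraries. The values of Plac9a, Cox7b2, Apoo-ps and Eif3j1 are therefore descriptions. The Zscan4 genes, Eif3j1 and Plac9a have near-identical copies, among which reads are shared. Groups of 2 libraries are too small for a test of single outlying libraries.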

How the results depend on the processing

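Leaving out 1 library at a time, with the same genes tested, gave 1151 to 2008 higher and 1818 to 2356 lower genes at the late 2-cell stage, against 2409 and 2933 with all 4, and 1136 to 1594 higher and 1042 to 1719 lower genes in the difference between stages. Percent lower over these fits was, for H3K9 genes 26.3 to 31.6, tRNA synthetases 14.3 to 28.6, spliceosome 33.3 to 45.1, CCT and prefoldin 28.6 to 64.3, chaperones 22.9 to 37.1, nuclear pore 17.3 to 30.8, DNA replication 22.0 to 28.0, cell cycle 18.3 to 26.8, regulators 23.5 to 44.1, pluripotency factors 24.2 to 30.3, imprinted genes 10.3 to 20.7, germline genes 23.9 to 30.4, genes not yet detected 15.2 to 19.7, carried genes 15.8 to 20.1. Percent higher was, for glycolysis and TCA cycle 11.9 to 26.2, mRNA storage and clearance 20.3 to 28.8, subcortical maternal complex 58.8 to 82.3, interferon response 11.8 to 17.6, DNA methylation 11.1 to 22.2, histones 14.3 to 38.1, genes up at the early 2-cell stage 17.6 to 26.3, carried genes 10.5 to 18.8, genes down at that stage 6.37 to 14.9, genes that normally fall by over 4 log2 units 43.1 to 60.9. With no filter on low TPM, which adds genes near 0, percent lower was 25.0 for H3K9 genes, 22.7 for tRNA synthetases, 25.6 for pluripotency factors, 14.6 for imprinted genes and 4.41 for genes not yet detected, and percent higher was 13.8 for interferon response, 20.0 for histones and 11.1 for genes down at the early 2-cell stage. With a mean of at least 5 TPM, interferon response was 40.0% higher and genes not yet detected 51.4% lower. Quantile normalization gave 28.6% lower tRNA synthetases; for it and the mean filter the cause was not tested. Of 207 named genes 195 were called. Of these calls 23 were lost without mDKO replicate 2, 20 without mDKO replicate 1, 13 without control replicate 1 and 14 without control replicate 2. Signs turned only in genes not called: over the fits without 1 library the log2 fold change was -0.28 to 0.073 for Jmjd1c, -0.31 to 0.067 for Cnot6, -0.33 to 0.29 for Dux and -0.21 to 0.13 for Ubtfl1, and with quantile normalization 0.13 for Ubtfl1. A replicate block gave 2505 higher and 2989 lower genes late, and 1748 and 1677 in the difference between stages, and changed no call of a named gene. Depth is unknown, so values near 1 TPM carry no counting error; 2 libraries per group leave the spread of single genes poorly known.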

Other observations

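Direction in mDKO late 2-cell embryos also followed the level in control early 2-cell embryos. Of the 148 genes with at least 1000 TPM in control early 2-cell embryos 70.3% were higher and 7.43% lower in mDKO late 2-cell embryos. From 100 to 1000 TPM these shares were 44.2% and 20.8%, from 10 to 100 TPM 26.0% and 24.2%, from 1 to 10 TPM 10.7% and 22.2%, and under 1 TPM 7.94% and 26.3%.

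The X chromosome carried 4.43% of the higher and 5.48% of the lower genes, beside 4.13% of all genes with a known chromosome. Transcripts had a median length of 2337 bases in higher genes and 2466 bases in lower genes, beside 2729 bases over all. Of the 2500 genes with the shortest transcripts 22.7% were higher and 29.2% lower, and of the 2497 with the longest 13.2% were higher and 18.3% lower.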
